A study of Mus musculus with 24 samples.

Results

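The 10 genes described here place N6-methyladenosine (m6A) on RNA or remove it, and they were matched by symbol to the gene identifiers of the count files through the GENCODE mouse annotation. All 10 were found among the 54446 genes counted: Mettl3, Mettl14, Wtap, Virma, Zc3h13, Rbm15, Rbm15b, Cbll1, Fto and Alkbh5. CD11b+ myeloid cells came from MC38 tumors, a mouse colon carcinoma line implanted under the skin of C57BL/6J mice of both sexes aged 8 to 10 weeks. All mice carried floxed Ythdf2 alleles (Ythdf2 fl/fl), without Cre in the WT groups and with Lyz-Cre, which is active in cells that express lysozyme M, in the Ythdf2 cKO groups (cKO below). Tumors were left untreated (Ctrl) or received 20 Gy once (IR), with cells taken 3 days later. Polyadenylated RNA was sequenced before (Input) and after (IP) pull-down with an m6A antibody, which gave 8 groups of 3 libraries. The study's methods describe the cells of a replicate as a pool of 5 mice and call the replicates technical in one place and biological in another, so p-values here measure the spread between libraries, which may be technical.

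m6A is laid down in the nucleus while RNA is made. METTL3 carries the catalytic site and METTL14 is its partner on RNA, and WTAP, VIRMA, ZC3H13, CBLL1, RBM15 and RBM15B form the associated complex that positions this core on transcripts. FTO and ALKBH5 are dioxygenases that take the methyl group off again. YTH proteins bind the modified base, and YTHDF2, the gene deleted in this study, leads such RNA to decay. The comparisons ask how the transcripts of this machinery responded to irradiation with and without myeloid Ythdf2, and how strongly the antibody recovered those transcripts themselves.

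Libraries held 65180075 to 83661576 gene counts (Input) and 68846321 to 86421888 (IP). Lyz2, the locus that Lyz-Cre interrupts, stood at 20060 to 21460 CPM (counts scaled to library size) in the 6 WT Inputs and at 296 to 414 CPM in the 6 cKO Inputs. In the IP libraries Lyz2 was at 16820 to 17690 CPM in WT Ctrl and 93.3 to 98.3 CPM in cKO Ctrl, but at 97.3 to 100.1 CPM in the libraries labelled WT IR and 20980 to 21220 CPM in those labelled cKO IR. After IR, the Lyz2 level of each IP library was thus that of the opposite genotype from its label. IP over Input after IR is therefore an average over both labels, with the values by label and with the labels crossed beside it, whereas peaks after IR are given by label only unless said otherwise. Ythdf2 itself had more Input counts in the libraries labelled cKO (174 to 231 CPM) than in those labelled WT (95.6 to 107 CPM), and gene counts do not tell floxed exons from the rest. Itgam, which encodes CD11b, was at 335 to 347 CPM in the cKO IR Inputs and at 379 to 407 CPM in the others. Further myeloid markers differed from it. In cKO IR, Tyrobp was at 474 to 491 CPM and Fcer1g at 432 to 468 CPM, both above all other Inputs. Ptprc (574 to 608 CPM) and Csf1r (1493 to 1590 CPM) in cKO IR overlapped their WT IR levels and lay below both untreated groups. The part of these markers in the member changes was not tested.

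The m6A peaks that the authors called in all 12 IP libraries lay at 10 sites in 5 of the genes. The sequence around a summit gives its place and does not show which base the antibody bound. The stretches of 9 of these sites follow. Each is the mm10 (GRCm38) genome on the transcript's strand, 61 bases in coding sequence (CDS) and 29 bases elsewhere, centered on the median summit. Capitals mark GGAC followed by A, C or T, forms of the motif that the METTL3 complex favors.
Virma site 4, CDS of exon 7 (chr4:11507995-11508055, plus strand): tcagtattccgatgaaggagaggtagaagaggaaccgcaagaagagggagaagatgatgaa
Virma site 6, CDS of exon 8 (chr4:11513833-11513893, plus strand): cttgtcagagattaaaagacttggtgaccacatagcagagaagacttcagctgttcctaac
Virma site 7, CDS of exon 9 (chr4:11518956-11519016, plus strand): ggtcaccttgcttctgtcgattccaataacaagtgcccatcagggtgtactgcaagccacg
Virma site 21, 3′ UTR, 9 bases after the stop codon (chr4:11549694-11549722, plus strand): cgatagatgtgttcttggcaacaccccaa
Zc3h13 site 6, CDS of exon 10 with the end of the intron before it (chr14:75323212-75323272, plus strand): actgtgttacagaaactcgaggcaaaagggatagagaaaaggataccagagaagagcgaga
Zc3h13 site 7, CDS of exon 10 (chr14:75323672-75323732, plus strand): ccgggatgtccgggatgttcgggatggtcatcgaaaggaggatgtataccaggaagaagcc
Zc3h13 site 15, exon of another isoform (chr14:75335909-75335937, plus strand): cttctttgtttagcaggagatgatgaatc
Wtap site 3, CDS of exon 6 with the end of the intron before it (chr17:12975431-12975491, minus strand): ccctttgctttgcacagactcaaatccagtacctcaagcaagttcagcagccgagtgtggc
Rbm15 site 3, CDS of exon 1 (chr3:107331988-107332048, minus strand): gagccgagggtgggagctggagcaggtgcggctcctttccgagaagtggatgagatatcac

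None of these 9 stretches held a capitalized motif, and other forms of the motif were not searched for. The next 3 are shown because they are the most frequent site of Mettl14 and of Fto and the single Virma stretch, among the sites found in at least 8 libraries, that held GGACA.
Mettl14 site 1, 3′ UTR, 427 bases after the stop codon (chr3:123368945-123368973, minus strand): acttttaaattctaaaaaataacatgaag
Fto site 3, CDS of exon 3 (chr8:91409625-91409685, plus strand): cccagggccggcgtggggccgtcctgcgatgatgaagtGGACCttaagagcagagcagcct
Virma site 18, CDS of exon 22 (chr4:11546003-11546063, plus strand): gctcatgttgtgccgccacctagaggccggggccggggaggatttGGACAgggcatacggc

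Per kilobase of principal transcript, Wtap was the most abundant of the 10 in Input and Cbll1 the least. With each level divided by the length of the principal transcript, WT Ctrl Inputs held 47.0 ± 0.75 CPM per kb of Wtap (SD, n = 3), 27.1 ± 0.75 of Alkbh5, 20.0 ± 0.60 of Zc3h13, 16.6 ± 0.80 of Fto and 13.3 ± 0.084 of Virma. Mettl3 was at 10.1 ± 0.67 CPM per kb, Mettl14 at 8.69 ± 0.36, Rbm15b at 7.42 ± 0.30, Rbm15 at 6.01 ± 0.29 and Cbll1 at 5.10 ± 0.39. No neighbors in this order overlapped between libraries, and the order was the same in the other Input groups except that Fto stood above Zc3h13 in cKO IR. The order depends on the length used: per kb of all annotated exons Alkbh5 came first with 26.0 ± 0.72 CPM per kb, Wtap fell to rank 3 with 15.5 ± 0.25 and Fto to rank 7 with 4.54 ± 0.22, Cbll1 rose to rank 6 and Mettl14 came last, and Cbll1 and Fto then overlapped. Across the 12 Inputs Zc3h13 varied most (coefficient of variation 18.7%), followed by Wtap (14.1%) and Rbm15 (13.0%), and Mettl3 varied least (4.74%). The plot of Input levels by library shows each gene on its own axis.

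**Figure D1:**
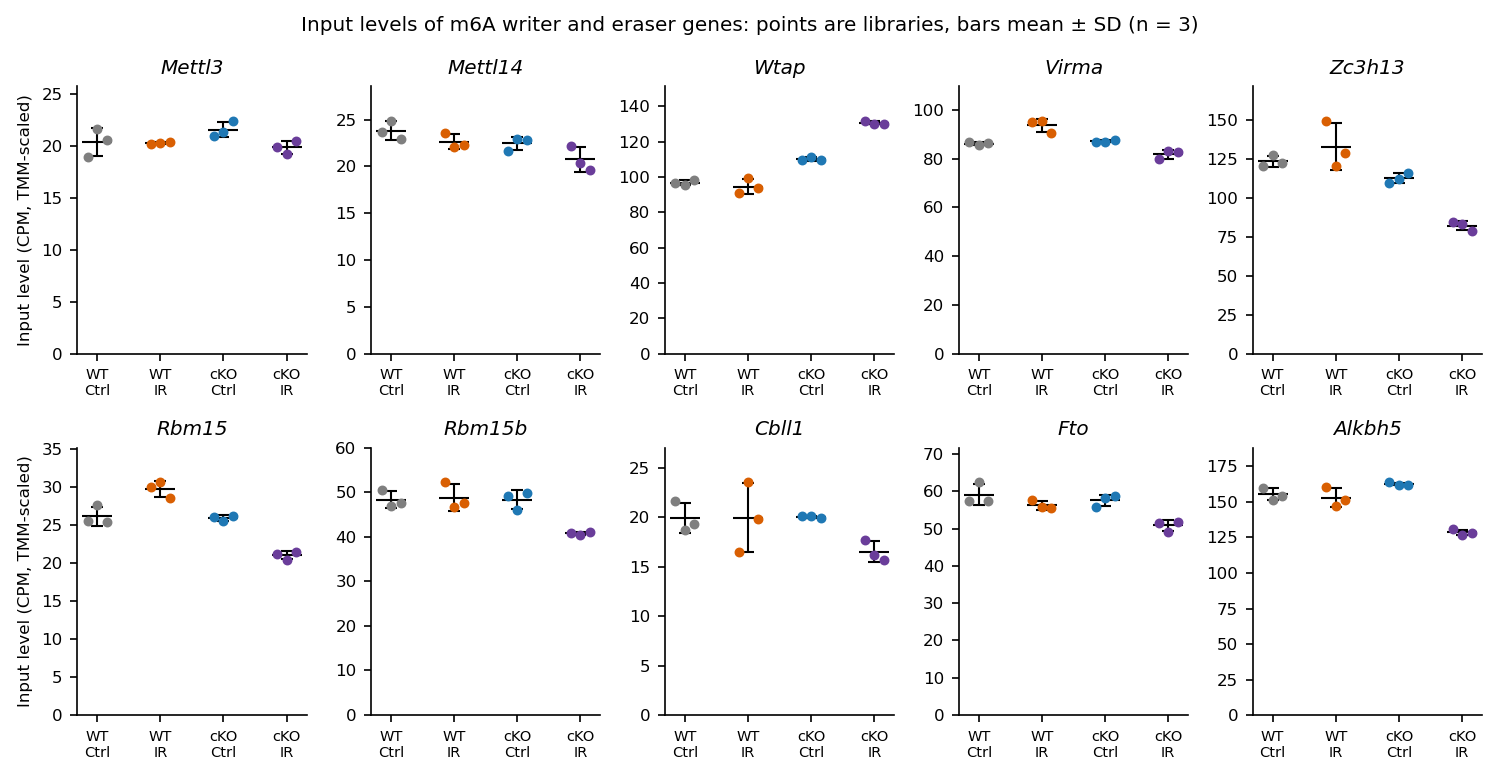
Input level of each of the 10 genes in CPM (TMM-scaled) on a linear axis from 0, by group. Points are the 3 libraries of a group and bars are mean ± SD; in cKO IR the 3 libraries of Wtap lie at 130 to 132 CPM, above all other groups, and those of Zc3h13 lie at 78.5 to 84.3 CPM, below all other groups.

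Mettl3 and Mettl14, the catalytic core, were not called in any Input comparison. Mettl3 was at 18.9, 21.6 and 20.6 CPM in WT Ctrl, 20.2, 20.3 and 20.4 CPM in WT IR, 20.9, 21.4 and 22.4 CPM in cKO Ctrl and 19.9, 19.3 and 20.5 CPM in cKO IR. Mettl14 was at 23.7, 24.9 and 22.9 CPM in WT Ctrl, 23.5, 22.0 and 22.3 CPM in WT IR, 21.6, 23.0 and 22.8 CPM in cKO Ctrl and 22.2, 20.4 and 19.7 CPM in cKO IR. Their edgeR adjusted p lay between 0.0946 and 0.939 over the 5 comparisons. The largest difference of either gene was that of Mettl14 in cKO IR against WT IR, where the log2 change was -0.12 ± 0.059 (SE, edgeR adjusted p = 0.0946) and the groups overlapped. Without cKO IR replicate 1, its highest library, that value was -0.18 and passed the threshold, as did the change after IR in cKO, at -0.17 in place of -0.11. Mettl3 shares 933 exonic bases with Tox4 on the opposite strand, and whether the gene counting used strand is not given in the sources used here.

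Wtap, the adaptor that holds the core in nuclear speckles, was the member that was higher in the cKO comparisons. It was at 96.8, 95.2 and 98.3 CPM in WT Ctrl, 90.7, 99.5 and 93.6 CPM in WT IR, 109.9, 111 and 109 CPM in cKO Ctrl and 132, 130.2 and 130.3 CPM in cKO IR. Both cKO groups lay above both WT groups, and the 3 cKO IR libraries were the highest of the 12. Wtap was higher in cKO Ctrl than in WT Ctrl by 0.19 ± 0.037 on the log2 scale (edgeR adjusted p = 0.00111) and above its WT IR level in cKO IR by 0.47 ± 0.037 (edgeR adjusted p = 2.28e-09). IR went with a rise of 0.25 ± 0.037 in cKO (edgeR adjusted p = 1.17e-05) and with a change of -0.033 ± 0.037 in WT (edgeR adjusted p = 0.56). The difference between these responses, the genotype by irradiation interaction, was 0.28 ± 0.052 (edgeR adjusted p = 0.000333). In bulk RNA a change in the share of a cell type and a change of RNA per cell cannot be told apart, which holds for all Input values here.

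Zc3h13, a zinc finger protein that anchors the complex in the nucleus, fell most. It was at 120.4, 127 and 122 CPM in WT Ctrl, 149, 120.3 and 129 CPM in WT IR, 109.6, 112 and 116 CPM in cKO Ctrl and 84.3, 83.4 and 78.5 CPM in cKO IR. The cKO IR libraries lay below all others, and WT IR replicate 1 lay above all others. In cKO, Zc3h13 fell by 0.45 ± 0.057 on the log2 scale after IR (edgeR adjusted p = 1.42e-06), and cKO IR was below WT IR by -0.69 ± 0.057 (edgeR adjusted p = 4.2e-09), the largest Input difference of any member. In WT the change after IR was 0.11 ± 0.056 (edgeR adjusted p = 0.17). It was 0.17 without WT IR replicate 2, its lowest library of that group, which passed the threshold, and 0.014 without replicate 1. The interaction was -0.56 ± 0.08 (edgeR adjusted p = 2.12e-05).

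Virma, the scaffold of the associated complex, moved in opposite directions in the 2 genotypes. It was at 86.8, 85.7 and 86.2 CPM in WT Ctrl, 94.9, 95.5 and 90.5 CPM in WT IR, 87.0, 87.0 and 87.7 CPM in cKO Ctrl and 79.8, 82.9 and 82.7 CPM in cKO IR. The WT IR libraries were the highest and the cKO IR libraries the lowest, without overlap with their controls. Virma rose by 0.12 ± 0.035 in WT (edgeR adjusted p = 0.0138) and fell by 0.093 ± 0.036 in cKO (edgeR adjusted p = 0.0387), with an interaction of -0.21 ± 0.05 (edgeR adjusted p = 0.00276). The call in WT was lost without the count filter and when the fit held those 6 libraries alone, at log2 changes of 0.11 and 0.12. The call in cKO was lost when any 1 of its 6 libraries was left out, at log2 changes of -0.10 to -0.075, and also, at -0.093 in the first case, with the replicate number as a block or without the count filter. cKO IR was lower than WT IR by -0.20 ± 0.036 (edgeR adjusted p = 0.000119).

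Cbll1, a ubiquitin ligase also named Hakai, had the lowest Input level per kb of principal transcript. It was at 21.6, 18.8 and 19.3 CPM in WT Ctrl, 16.5, 23.5 and 19.8 CPM in WT IR, 20.1, 20.1 and 19.9 CPM in cKO Ctrl and 17.7, 16.2 and 15.7 CPM in cKO IR. The WT IR libraries spanned nearly the whole range of the gene. Cbll1 fell by 0.28 ± 0.092 in cKO after IR (edgeR adjusted p = 0.0182) and was lower in cKO IR than in WT IR by -0.27 ± 0.093 (edgeR adjusted p = 0.0206). The first call was lost without cKO IR replicate 2 (log2 change -0.26) or 3 (-0.24). The second was lost without those replicates (-0.26 and -0.24), without WT IR replicate 2 (-0.14) and when the fit held those 6 libraries alone (-0.27).

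Rbm15 and Rbm15b are related RNA-binding proteins that recruit the complex to its targets. Rbm15 was at 25.4, 27.5 and 25.4 CPM in WT Ctrl, 30, 30.6 and 28.6 CPM in WT IR, 26.0, 25.5 and 26.1 CPM in cKO Ctrl and 21.2, 20.4 and 21.4 CPM in cKO IR. Its WT IR libraries were the highest and its cKO IR libraries the lowest of the 12. Rbm15 rose by 0.19 ± 0.052 after IR in WT (edgeR adjusted p = 0.00923) and fell by 0.30 ± 0.053 in cKO (edgeR adjusted p = 7.75e-05), with an interaction of -0.49 ± 0.074 (edgeR adjusted p = 4.13e-05). Rbm15b was at 50.5, 46.9 and 47.5 CPM in WT Ctrl, 52.2, 46.7 and 47.5 CPM in WT IR, 49.2, 46.0 and 49.9 CPM in cKO Ctrl and 40.8, 40.5 and 41.2 CPM in cKO IR. Its cKO IR libraries lay below the 9 others, which overlapped. Rbm15b fell by 0.24 ± 0.05 after IR in cKO (edgeR adjusted p = 0.000412) and changed by 0.015 ± 0.05 in WT (edgeR adjusted p = 0.863), with an interaction of -0.26 ± 0.07 (edgeR adjusted p = 0.00806).

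Both erasers were lower in cKO IR as well. Alkbh5 was at 160.2, 152 and 154 CPM in WT Ctrl, 160.3, 147 and 151 CPM in WT IR, 164, 162 and 162 CPM in cKO Ctrl and 131, 127 and 128 CPM in cKO IR. All 3 cKO IR libraries lay below the 9 others. Alkbh5 fell by 0.34 ± 0.036 after IR in cKO (edgeR adjusted p = 1.72e-07) and changed by -0.023 ± 0.036 in WT (edgeR adjusted p = 0.689), with an interaction of -0.32 ± 0.051 (edgeR adjusted p = 8.26e-05). Fto was at 57.4, 62.4 and 57.6 CPM in WT Ctrl, 57.6, 55.8 and 55.5 CPM in WT IR, 55.9, 58.1 and 58.7 CPM in cKO Ctrl and 51.6, 49.2 and 51.9 CPM in cKO IR. Its fall in cKO after IR was 0.18 ± 0.044 (edgeR adjusted p = 0.00216), and cKO IR was below WT IR by -0.15 ± 0.044 (edgeR adjusted p = 0.00988), a call lost without cKO IR replicate 2, at -0.12. The interaction of Fto did not pass the threshold (-0.11 ± 0.062, edgeR adjusted p = 0.216).

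Counted over the members, 8 of 10 were called after IR in cKO, where 45.6% of the 16090 genes tested were called. Of these, 7 fell (23.8% of all genes fell) and Wtap rose, and the median log2 change was -0.21 over the members and 0.01 over all genes. After IR in WT, Virma and Rbm15 were called, both higher, against 31.7% of all genes, with medians of -0.001 and 0.006. In untreated tumors Wtap alone was called between cKO and WT, against 15.7% of all genes. Between cKO IR and WT IR 8 members were called, 7 lower and Wtap higher, against 47.7% of all genes, with medians of -0.22 and -0.003. The interaction was called for 6 members, 5 of them negative, against 30.2% of all genes. Groups without overlap were common in the whole table. After IR in cKO this held for 9 members and 55.8% of all genes, and after IR in WT for 2 and 39.8%. Between cKO IR and WT IR it held for 7 members and 52.1% of all genes, and between cKO Ctrl and WT Ctrl for 4 and 36.3%. Comparisons that share a group of libraries are not independent of each other, so these counts do not add up. The plot of Input changes sets the comparisons side by side.

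**Figure D2:**
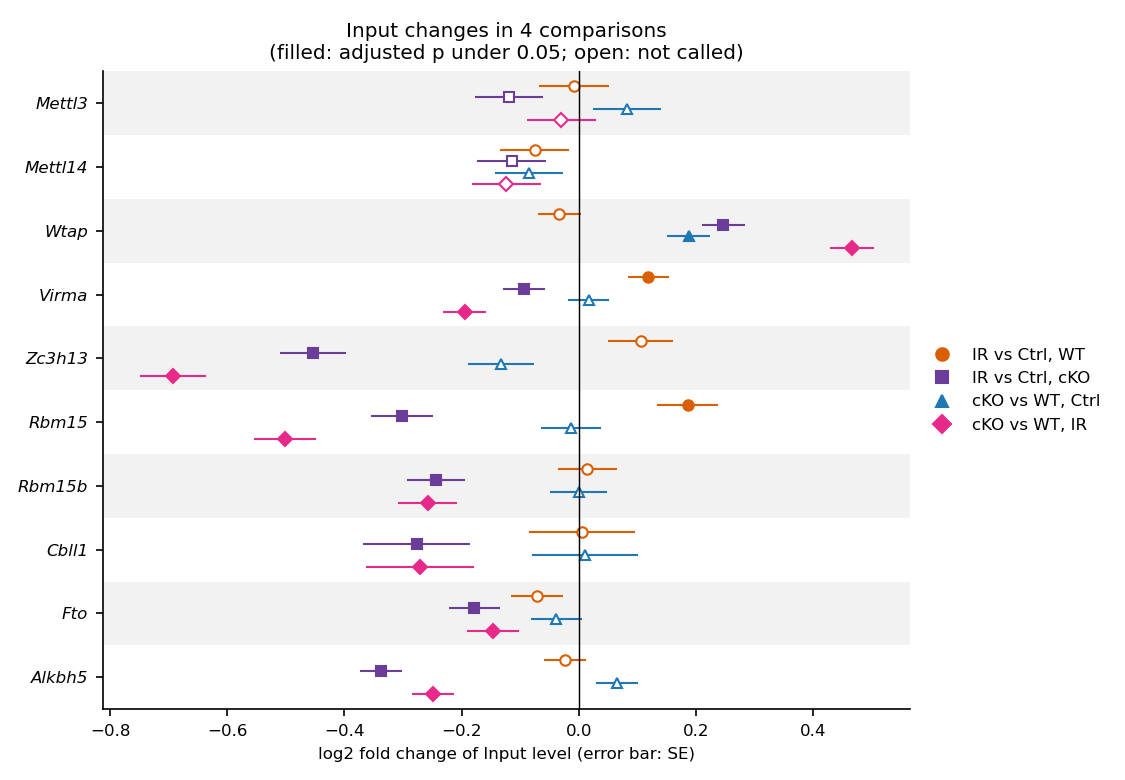
log2 fold change of the Input level of each gene in 4 comparisons, with SE as error bars; filled symbols passed an adjusted p of 0.05 in edgeR and open symbols did not. Squares (IR in cKO) and diamonds (cKO against WT after IR) lie left of 0 for 9 of the 10 genes and right of 0 for Wtap.

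Other cell type markers moved with the same groups, and their part in the member changes was not tested. Levels in this paragraph are those of the Inputs unless IP is named. The summed level of 5 neutrophil markers was 1544 to 1635 CPM in WT Ctrl, 318 to 359 CPM in WT IR, 668 to 685 CPM in cKO Ctrl and 297 to 314 CPM in cKO IR. That of 5 macrophage markers lay between 3392 and 3946 CPM, of which Apoe made up 2122 to 2683 CPM. Single macrophage markers differed between groups, C1qa with 66.4 to 68.6 CPM in WT Ctrl, 47.0 to 50.4 CPM in WT IR, 112 to 114 CPM in cKO Ctrl and 86.0 to 92.4 CPM in cKO IR, and Adgre1 with 501 to 566 CPM in WT IR and 731 to 749 CPM in cKO IR. The sum of 7 proliferation genes went from 665 to 683 CPM in WT Ctrl and 592 to 608 CPM in cKO Ctrl to 317 to 323 CPM in WT IR and 336 to 338 CPM in cKO IR. The 4 monocyte markers summed to 745 to 800.3 CPM in WT Ctrl, 235 to 293 CPM in WT IR, 624 to 661 CPM in cKO Ctrl and 375 to 383 CPM in cKO IR. The 4 platelet genes summed to 197 to 208 CPM in the untreated groups, 274 to 302 CPM in WT IR and 362 to 373 CPM in cKO IR, mostly from Pf4. Erythroid genes were at 22.4 to 25.1 CPM in the WT IR Inputs and at most 0.067 CPM in the other Input groups. In the irradiated IP libraries they were at most 0.189 CPM, under either genotype label. The part of this difference in IP over Input after IR was not tested. Of 6 T and NK cell markers at least 5 were below 1 CPM in each group, all 4 B cell markers were below 1 CPM, and of 5 epithelial markers Krt8, Krt18 and Krt19 had at most 1 count in any Input. The other epithelial markers were Epcam, with 29 to 83 counts per Input, and Cdh1, with 311 to 534, and the 5 summed to 5.57 to 8.05 CPM in the Inputs and 87.7 to 129 CPM in the IP libraries. The 4 primary granule genes were below 1 CPM after IR in both genotypes. The same WT IR libraries were the extremes of Zc3h13 and Cbll1, in opposite order. Replicate 1 was highest for Zc3h13 (149 CPM) and lowest for Cbll1 (16.5 CPM). Replicate 2 was lowest for Zc3h13 (120.3 CPM) and highest for Cbll1 (23.5 CPM).

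Genes of the same pathway outside the list gave a wider picture, as counts of those called, to be read beside the 31.7% of all genes called after IR in WT and the 45.6% in cKO. Of 5 genes listed with other RNA N6-adenosine methyltransferases (Mettl16, Mettl5, Trmt112, Zcchc4 and Pcif1), 1 rose and 2 fell after IR in cKO. The largest of these changes were 0.42 ± 0.099 for Mettl5, which methylates ribosomal RNA (edgeR adjusted p = 0.00135), and -0.28 ± 0.044 for Pcif1, which methylates the base next to the cap (edgeR adjusted p = 2.74e-05). Mettl5 had the largest interaction among them (0.51 ± 0.14, edgeR adjusted p = 0.0086). Of 7 other AlkB family genes, the changes after IR in WT lay between -0.12 and 0.18 with edgeR adjusted p of 0.204 or more, and 3 rose in cKO: the DNA repair enzyme Alkbh2 (0.63 ± 0.18, edgeR adjusted p = 0.00636), Alkbh6 (0.53 ± 0.10, edgeR adjusted p = 0.000186) and the mitochondrial Alkbh7 (0.51 ± 0.10, edgeR adjusted p = 0.000267). The interaction passed for Alkbh7 (0.63 ± 0.15, edgeR adjusted p = 0.00211) and not for Alkbh2 (0.52 ± 0.26, edgeR adjusted p = 0.145) or Alkbh6 (0.35 ± 0.14, edgeR adjusted p = 0.0707). Alkbh2 and Alkbh7 each stood above WT IR in cKO IR by 0.68 (edgeR adjusted p = 0.00362 and 1.31e-05).

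Of 10 m6A reader genes, 3 rose and 2 fell after IR in WT, and 1 rose and 6 fell in cKO. In cKO the largest were -0.43 ± 0.077 for Ythdc2 (edgeR adjusted p = 9.5e-05) and 0.32 ± 0.035 for Ythdf2 (edgeR adjusted p = 2.23e-07). The reader genes with changes of at least 0.5 in WT were low in count: Igf2bp1 (1.09 ± 0.33, edgeR adjusted p = 0.0143), with 26 to 108 counts per Input over all groups, and Igf2bp3 (0.60 ± 0.15, edgeR adjusted p = 0.00349), with 147 to 293. Igf2bp1 was also lower in cKO IR than in WT IR (-1.18 ± 0.33, edgeR adjusted p = 0.00568). Ythdf2 counts were higher in cKO by 0.88 ± 0.036 in Ctrl (edgeR adjusted p = 6.04e-13) and by 1.08 ± 0.036 after IR (edgeR adjusted p = 1.62e-14). Of 5 genes listed with S-adenosylmethionine, the methyl donor, 1 rose and 1 fell after IR in each genotype. The 5 were Mat2a, Mat2b, Ahcy and the Ahcy-like genes Ahcyl1 and Ahcyl2. Ahcy, which hydrolyzes the product S-adenosylhomocysteine, fell by 0.55 ± 0.062 in WT (edgeR adjusted p = 5.95e-07) and had an interaction of 0.40 ± 0.087 (edgeR adjusted p = 0.00136). Mat2a, which makes the donor, changed by -0.017 ± 0.057 in WT and 0.028 ± 0.057 in cKO, and its regulatory partner Mat2b rose by 0.42 ± 0.046 in cKO (edgeR adjusted p = 2.17e-07).

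Some genes followed the members closely over the 12 Inputs, given as Pearson's r of log levels across libraries that share groups. Wtap ran most like Serp1 (r = 0.994), Lox (0.992) and Selenop (0.992). Zc3h13 ran most like Dop1b (0.991), R3hdm2 (0.989) and Eif3a (0.988). For Rbm15 they were Ankrd50 (0.985), Agap1 (0.978) and Tbc1d9 (0.975), and for Alkbh5 they were Uggt1 (0.984), Camta2 (0.98) and Man2b1 (0.977).

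The antibody recovered the writers' own transcripts unevenly. IP over Input is the log2 ratio of a gene's level in IP to that in Input, TMM-scaled over all libraries together. The CPM given for IP and for Input are scaled apart, so their ratio differs from it. In WT Ctrl Mettl3 had a mean of 22.8 CPM in IP and 20.4 CPM in Input at an IP over Input of -0.048. IP over Input is 0 for a gene of average recovery under the joint scaling. In WT Ctrl it was 1.28 ± 0.029 for Virma (SE, edgeR adjusted p = 1.84e-28), 1.16 ± 0.033 for Wtap (edgeR adjusted p = 2.03e-25), 1.02 ± 0.046 for Rbm15b (edgeR adjusted p = 4.47e-20) and 0.94 ± 0.046 for Rbm15 (edgeR adjusted p = 6.11e-19). Zc3h13 and Fto were at 0.41 each, Mettl14 at 0.18 ± 0.053 (edgeR adjusted p = 0.00296), and Mettl3 (-0.048 ± 0.061) and Cbll1 (-0.11 ± 0.078) did not pass the threshold. Alkbh5 was depleted, at -1.06 ± 0.035 (edgeR adjusted p = 1.23e-23). The 3 WT Ctrl IP libraries held 86.2, 85.4 and 86.5 CPM of Alkbh5 and 242, 247 and 239 CPM of Virma, on a scale set over the IP libraries. Per kb of principal transcript this was 15.02 ± 0.098 CPM of Alkbh5 and 37.3 ± 0.66 of Virma in IP (SD, n = 3), whereas the Inputs held 27.1 ± 0.75 of Alkbh5 and 13.3 ± 0.084 of Virma, so their order was inverted.

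In cKO Ctrl the order was much the same. Virma was at 1.28 ± 0.029, Rbm15 at 1.19 ± 0.046, Wtap at 1.12 ± 0.033, Rbm15b at 0.86 ± 0.046, Zc3h13 at 0.62 ± 0.047 and Alkbh5 at -1.05 ± 0.035. Counts of members called were 8 of 10 in WT Ctrl (7 higher, 1 lower), 10 in cKO Ctrl (8 higher, 2 lower) and 9 after IR averaged over labels (7 higher, 2 lower). Among the 17373 genes tested, 75.5%, 73.7% and 80.3% were called in these comparisons, so the number called does not set the members apart. Their medians were 0.41, 0.45 and 0.61, against 0.018, 0.019 and -0.002 over all genes.

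The difference of IP over Input between cKO Ctrl and WT Ctrl was called for 3 members, against 22.6% of all genes. Cbll1 was higher in cKO by 0.31 ± 0.11 (edgeR adjusted p = 0.0392), Rbm15 by 0.26 ± 0.064 (edgeR adjusted p = 0.0031) and Zc3h13 by 0.21 ± 0.067 (edgeR adjusted p = 0.0204). The Rbm15 IP libraries were at 55.0, 59.3 and 59.3 CPM in WT Ctrl and 68.3, 69.9 and 68.5 CPM in cKO Ctrl, without overlap. Leaving out 1 of the 12 libraries lost the Cbll1 call in 7 cases, at differences of 0.245 to 0.313, and the Zc3h13 call in 4, at 0.179 to 0.19, with cKO Ctrl Input replicate 1 among both. The Cbll1 call was also lost with the replicate number as a block (0.31).

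After IR, averaged over labels, IP over Input changed for 7 members, against 48.4% of all genes. It fell for Wtap by 0.35 ± 0.033 (edgeR adjusted p = 6.46e-11), for Mettl14 by 0.20 ± 0.054 (edgeR adjusted p = 0.00215) and for Rbm15 by 0.12 ± 0.046 (edgeR adjusted p = 0.0331). It rose for Cbll1 by 0.28 ± 0.078 (edgeR adjusted p = 0.00297), for Zc3h13 by 0.22 ± 0.047 (edgeR adjusted p = 0.000155), for Alkbh5 by 0.18 ± 0.035 (edgeR adjusted p = 5.49e-05) and for Fto by 0.12 ± 0.039 (edgeR adjusted p = 0.00908). Virma did not pass (-0.008 ± 0.028). The IP libraries held 247, 249 and 252 CPM of Wtap in WT Ctrl, 291, 270.3 and 276 CPM in cKO Ctrl, 214, 217 and 229 CPM in those labelled WT IR and 228, 231 and 225 CPM in those labelled cKO IR. All 6 irradiated IP libraries thus lay below the 6 untreated ones for Wtap. The Rbm15 call was lost under DESeq2 (-0.10), RLE scaling (-0.10), no count filter (-0.10) and when any of 14 libraries was left out (-0.098 to -0.115).

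The pairing of IP and Input labels after IR moved some members widely. The IP libraries labelled WT IR held 220.2, 220.9 and 210.4 CPM of Zc3h13 and those labelled cKO IR held 194, 186 and 191 CPM. By label, IP over Input of Zc3h13 was 0.47 ± 0.047 in WT IR and 1.01 ± 0.048 in cKO IR, and with the labels crossed it was 0.32 ± 0.047 over the WT IR Input and 1.16 ± 0.048 over the cKO IR Input. Wtap was at 0.98 ± 0.033 and 0.59 ± 0.033 by label, and at 1.06 ± 0.033 over the WT IR Input and 0.51 ± 0.033 over the cKO IR Input when crossed. For both genes the Input library in the ratio moved the value more than the IP library. Alkbh5 was at -0.86 and -0.89 by label and at -1.14 and -0.61 crossed. Under all 4 pairings 6 to 7 members were called higher and Alkbh5 and Mettl3 were called lower, as the plot of IP over Input shows.

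**Figure D3:**
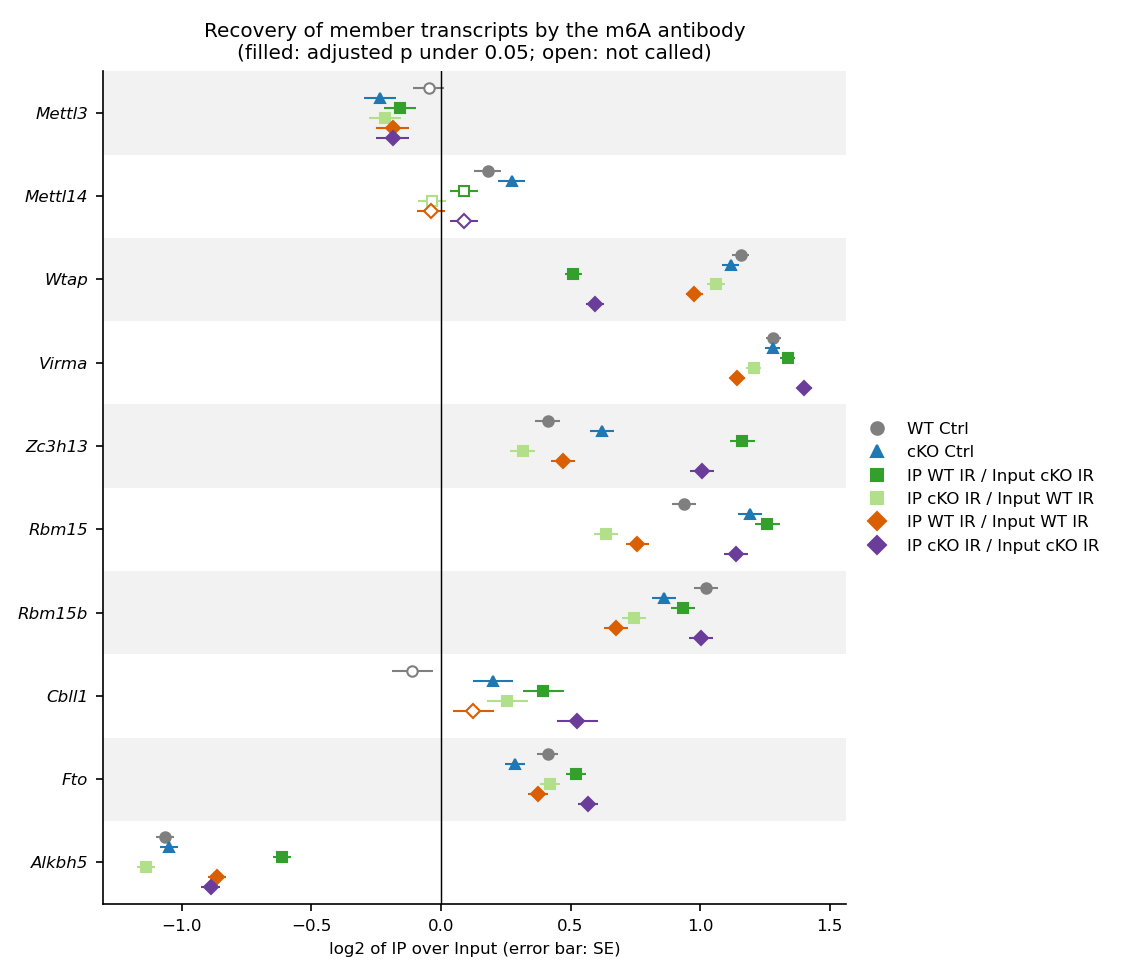
log2 of IP over Input for each gene, with SE as error bars, in untreated WT and cKO and for the 4 ways of setting irradiated IP over irradiated Input libraries by their labels; filled symbols passed an adjusted p of 0.05 in edgeR. Virma lies between 1.14 and 1.40 in all 6 ratios and Alkbh5 between -1.14 and -0.61, while Zc3h13 and Wtap split by the Input used.

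Peaks describe where along the transcripts this recovery lay. The authors called peaks in each IP library on its own, and 13470 to 17608 peaks per library held 30 to 40 over the members. The 440 member peaks had 155 in Virma, 119 in Zc3h13, 54 in Wtap, 38 in Rbm15, 30 in Fto, 28 in Rbm15b, 10 in Mettl14 and 6 in Cbll1. No library had a peak in Mettl3 or Alkbh5. A peak shared by all 3 libraries of a group was found in 7 members in untreated WT (27.7% of all genes tested), 6 in WT IR (23.3%), 7 in untreated cKO (25.8%) and 7 in cKO IR (20.8%). Counts of peaks grow with length and level, and which Input served as control for each IP library is not given in the sources used here.

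Summits lay in the CDS for 324 of the 440 peaks (73.6%), in the 3′ UTR for 30 (6.82%), in introns for 65 (14.8%) and in exons of other isoforms for 21 (4.77%). All 65 intronic summits were within 49 bases of an exon edge, with a median distance of 6 bases. Over all genes 18.4% of peaks had intronic summits and 91.0% of those lay within 50 bases of an exon edge. Grouped within 50 bases, the summits formed 71 sites, of which 10 were found in all 12 libraries and 13 in a single library.

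Virma had the most recurrent sites, spread along its CDS. Its sites 4, 6 and 7 in exons 7, 8 and 9, printed above, had median folds over control of 2.4, 3.63 and 2.97, and site 21, 9 bases after the stop codon, had 1.88. Virma had 12 to 15 peaks per library in untreated WT and 12 to 14 after IR, and 11 to 13 in cKO both untreated and after IR. Site 17 in exon 21, found in 10 libraries, had the highest median fold of its frequent sites, 5.99. The groups overlapped in number of peaks.

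In Zc3h13, site 15 was found in all 12 libraries with folds of 4.19 to 9.94, the highest of any member peak. It lies 2 bases from an exon edge in an exon of another isoform. Zc3h13 had 9, 6 and 9 peaks in the untreated WT libraries, 7, 10 and 8 in WT IR, 13, 10 and 10 in untreated cKO and 13, 12 and 12 in cKO IR, all by label. The libraries labelled WT held 6 to 10 and those labelled cKO 10 to 13, but with the irradiated labels crossed the ranges were 6 to 13 and 7 to 13, so the separation rested on the labels that Lyz2 goes against.

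Wtap had 6, 5 and 7 peaks in the untreated WT libraries and 5, 6 and 6 in the untreated cKO ones, against 4, 4 and 4 in WT IR and 1, 4 and 2 in cKO IR. The irradiated libraries held fewer peaks than the untreated ones without overlap, and this was not tested. Peaks over all genes numbered 15503 to 17608 in the untreated libraries, 14870, 17442 and 15452 in WT IR and 13470 to 14041 in cKO IR. Site 3 in exon 6 was found in all 12 libraries (fold 2.42 to 3.3), and sites 2 and 4 were each found in 10, with 1 of the 3 cKO IR libraries. Rbm15 site 3 in exon 1 had folds of 3.11 to 6.48 in the 12 libraries and Rbm15b site 5 had 2.12 to 5.02.

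The other members had few peaks. Mettl14 had a single site in its 3′ UTR, found in 10 libraries with folds of 1.59 to 2.35, and missing from WT IR replicates 2 and 3. Fto had its most frequent site in exon 3 (9 libraries, median fold 2.18), a site at the stop codon (6 libraries) and a site 121 bases after it (6 libraries). Cbll1 site 2, in exon 6, was found in 5 libraries, with a median fold of 2.24. The 3′ UTR of Alkbh5 is 4097 bases long, the longest among the members, and no peak was called in it.

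**Figure D4:**
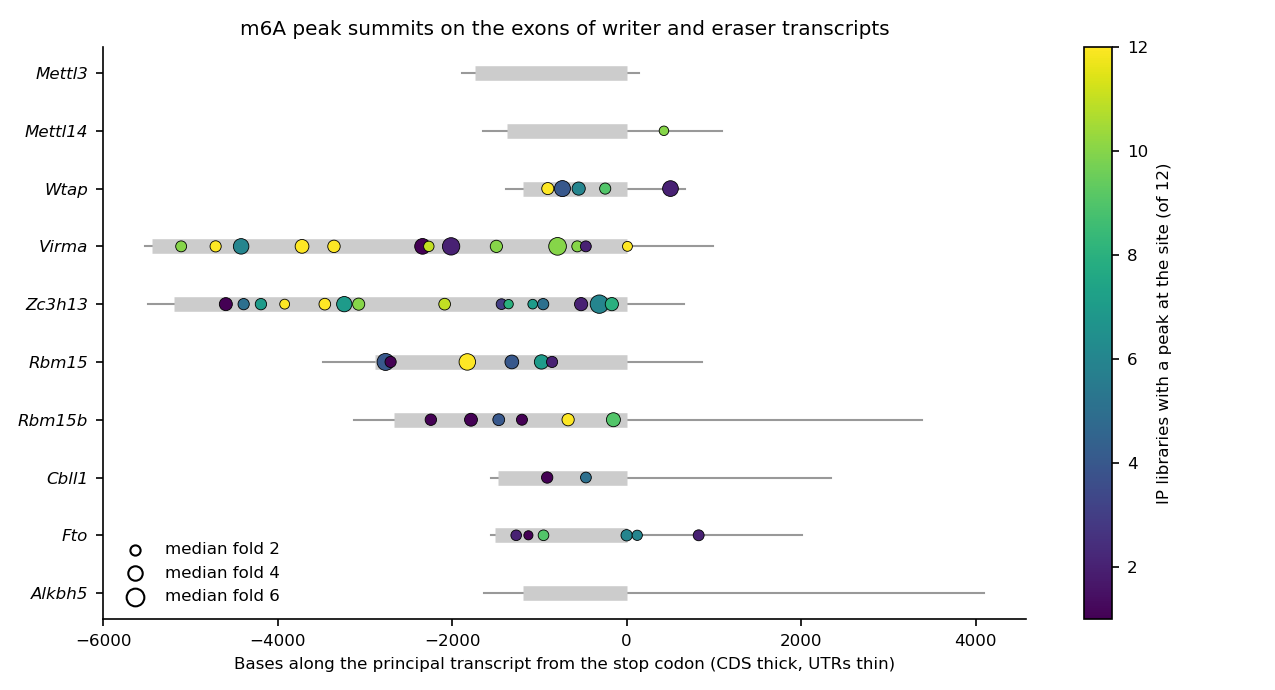
Peak sites drawn along the principal transcript of each gene in bases from the stop codon, with the CDS thick and the UTRs thin; color gives the number of IP libraries with a peak at the site (of 12) and area the median fold over control. The 54 sites on exons of these transcripts are drawn and the 17 in introns or exons of other isoforms are not; Mettl3 and Alkbh5 carry none.

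The capitalized forms of the motif were counted in windows of 101 bases around each summit, on the transcript's strand. These windows are unspliced genome, so those near an exon edge can hold intron sequence. GGACT was found in 6.42% of the member windows in untreated WT, 4.76% in WT IR, 6.84% in untreated cKO and 2.75% in cKO IR, and in 10.8%, 10.7%, 10.9% and 11.3% of the windows of all peaks in the same order. GGAC followed by any of A, C and T was found in 18.4%, 21.0%, 22.2% and 22.9% of the member windows and in 30.7%, 30.9%, 30.4% and 32.0% of all windows. Member windows repeat the same sites across libraries, so these shares rest on 71 sites and were not tested. Beyond the capitals shown above, the 101-base window of Wtap site 4 held GGACT and that of Virma site 21 held GGACA.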

How the data were processed

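Reads were trimmed, aligned to mm10 and counted per gene by the authors with Trimmomatic 0.39, HISAT and HTSeq, and the deposited values are raw counts, neither normalized nor pooled. The authors called m6A peaks per IP library and strand with MACS2. Their deposited lists give each peak a fold enrichment over a control library (a ratio), -log10 p and q-values and a score that follows q, which were used here as descriptions only. Reads outside genes were 2.97 to 6.80% of each library and were left out.

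Counts were tested with edgeR 4.0.16 in R 4.3.3 (quasi-likelihood, TMM scaling, a minimum of 10 counts in 3 or more libraries) and Benjamini-Hochberg adjusted over all genes at 0.05. The 12 Inputs were fitted together for levels and all 24 libraries for IP over Input, without covariates. The scripts were tested on simulated data. Input and IP CPM are TMM-scaled over 12 libraries each, and marker and list levels use plain totals. The common coefficient of variation was 5.57% in the Inputs. Symbols, exons and sequences came from GENCODE and the genome of GRCm38; 54409 gene identifiers matched. The principal transcript is the protein-coding one ranked first as principal in the annotation, and a site joins summits within 50 bases. Alternatives were DESeq2 1.42.0, RLE scaling, no count filter, a replicate block, fits of the compared libraries alone and leaving out each library. The genes and lists were chosen with earlier results of these data known. All 10 members are named. From the lists, genes called with a log2 change of at least 0.5 are named, or else the 2 largest changes, and for members called in Input with a change of at least 0.3 the 3 genes of highest correlation. The sequence of 1 peak site is not reported here.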

Additional observations from a re-analysis of the deposited data

Results flagged for a closer look

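These values were set apart because the effect itself differed between groups in a test of the difference (edgeR, Benjamini-Hochberg over all genes). In Input, the response to IR differed between cKO and WT on the log2 scale by 0.279 for Wtap, by -0.212 for Virma, by -0.56 for Zc3h13, by -0.488 for Rbm15, by -0.258 for Rbm15b and by -0.315 for Alkbh5. These 6 kept their direction and their call when any single Input library was left out, with ranges from -0.626 to -0.468 for Zc3h13 and from 0.249 to 0.316 for Wtap.

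IP over Input was higher in cKO Ctrl than in WT Ctrl by 0.208 for Zc3h13, by 0.256 for Rbm15 and by 0.31 for Cbll1. IP over Input after IR, averaged over genotype labels, differed from that in untreated tumors by -0.2 for Mettl14, by -0.351 for Wtap, by 0.223 for Zc3h13, by -0.118 for Rbm15, by 0.28 for Cbll1, by 0.123 for Fto and by 0.18 for Alkbh5. Genes of the whole table were called in 30.2%, 22.6% and 48.4% of cases in these 3 comparisons, and the Lyz2 levels of the irradiated IP libraries were those of the other genotype label.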

How the results depend on the processing

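Numbers of members called follow. Without the count filter, and with only the compared libraries in the fit, calls after IR in WT went from 2 to 1 and calls between cKO Ctrl and WT Ctrl from 1 to 2, with Zc3h13 added. In the latter comparison the fit of the compared libraries alone also raised the calls over all genes from 2520 to 3870. Without WT IR Input replicate 1, calls over all genes after IR in WT rose from 5100 to 6071. Leaving out any other library of that comparison gave 4174 to 4702. For the interaction, leaving out that replicate raised them from 4861 to 5538. At a peak fold of at least 4, members with a peak in all 3 libraries fell to 3 in each untreated group and to 2 in each irradiated one. Leaving out 1 library gave 2 to 3 members after IR in WT, 6 to 8 after IR in cKO, 1 between cKO Ctrl and WT Ctrl, 6 to 9 between cKO IR and WT IR and 6 to 7 for the interaction. For IP over Input it gave 8 in WT Ctrl, 9 to 10 in cKO Ctrl, 9 after IR, 6 to 8 for the change after IR and 1 to 3 for the genotype difference, the lowest without cKO Ctrl Input replicate 1. The cause was not tested.

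With the replicate number as a block, the fit called 7 members in place of 8 after IR in cKO (Virma lost) and 2 in place of 3 for the genotype difference of IP over Input (Cbll1 lost). The numbers called in the other comparisons, 2, 1, 8, 6, 8, 10, 9 and 7, were those without the replicate block. The samples share only a number: correlations of deviations between same-numbered libraries were -0.043 to 0.018 in Input and -0.024 to 0.032 in IP. Setting irradiated IP over Input by label or crossed, chosen after seeing the data, called 8 to 9 members. Of 1430 values for single members, 1361 stayed on their side of the threshold, 51 lost the call and 18 gained it. No called value changed sign, whereas some uncalled values near 0 did.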

Other observations

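In untreated WT, transcripts of the rest of the m6A pathway were also recovered unevenly by the antibody, with 75.5% of all genes called in this comparison. Of 10 reader genes, 6 were higher and 4 lower in IP than in Input. Those higher by at least 0.5 on the log2 scale were Ythdf2 (0.997 ± 0.039, SE, edgeR adjusted p = 9.72e-22), Hnrnpa2b1 (0.96 ± 0.024, edgeR adjusted p = 2.31e-27), Ythdc1 (0.85 ± 0.042, edgeR adjusted p = 8.94e-19), Igf2bp1 (0.76 ± 0.34, edgeR adjusted p = 0.041) and Ythdf3 (0.60 ± 0.047, edgeR adjusted p = 2.06e-13). Igf2bp2 (-2.30 ± 0.067) and Igf2bp3 (-0.83 ± 0.16) were lower.

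Of 7 other AlkB genes, 4 were higher and 1 lower, with Alkbh2 at 1.76 ± 0.15, Alkbh4 at 1.09 ± 0.11 and Alkbh1 at 0.78 ± 0.073. Of the 5 genes listed with S-adenosylmethionine, Mat2a was higher (1.14 ± 0.048, edgeR adjusted p = 8.84e-21) and 4 were lower, with the Ahcy-like genes Ahcyl1 at -1.18 ± 0.035 and Ahcyl2 at -2.46 ± 0.038. Of the 5 genes listed with other methyltransferases 2 were higher and 2 lower, with Mettl5 at 0.61 ± 0.096 and Mettl16 at 0.60 ± 0.055.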
